A study of Mus musculus with 18 samples.

Results

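The genes described here are the DNA replication genes of the mouse distal colon, followed over 6 collection times of the day. They were chosen by a list of 44 genes of replication licensing, the fork and nucleotide supply, and each was read from the probe set (a group of short probes for 1 transcript) with the highest mean signal among those carrying that gene symbol alone. Of the 44, 43 had such a probe set and 40 passed the filter on dim probe sets, out of 12870 genes tested in all. Chaf1a was not analysed here, and Gins1, Pole and Tyms were below the filter. The tissue lay 0.5 cm above the anus, and the mice had eaten freely and lived for 2 weeks in a cycle of 12 h light and 12 h dark; strain, sex and age are not given in the labels used here. Lights came on at clock hour 7, and the collection at 8am was 1 h later, followed by 12pm (5 h), 4pm (9 h), 8pm (13 h), 12am (17 h) and 4am (21 h). The series asks which transcripts follow a daily rhythm. Each time had 3 arrays, named a to c, and where nothing says that they came from separate mice, a p-value measures only the spread between these samples, which may be technical.

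A cell copies its genome once per division. In the first growth phase, ORC, CDC6 and CDT1 load the MCM helicase ring onto origins, which is called licensing; in S phase CDC45 and the GINS complex turn the ring into a moving helicase, primase and the polymerases copy the strands, and PCNA, loaded by RFC, holds the polymerases in place. Many of these genes are switched on by E2F transcription factors as a cell enters S phase, while the genes of mitosis are switched on later through another promoter element, the CHR. In the colon the dividing cells sit in the lower part of the crypts, so in whole tissue fewer dividing cells and less RNA per cell cannot be told apart.

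Promoters of these genes were set beside the array values because most members were high together in 1 array, described below. The 4 printed here are as RefSeq gives them on build GRCm38.p6, each 300 bases on the minus strand from 250 before the start of the gene to 50 after it, with matches to the E2F letters on either strand in capitals. The letters searched were TTGGCGC first, then TTCCCGC, then also TTCGCGC, and last TTGCCGC. Mcm6 and Pola1 held the most matches in 1 window among the members, Mcm3 is shown as 1 of the members with 3 (Mcm3, Mcm5 and Mcm7), and Pold2 is shown as the member with the lowest adjusted p in any test.

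Mcm6: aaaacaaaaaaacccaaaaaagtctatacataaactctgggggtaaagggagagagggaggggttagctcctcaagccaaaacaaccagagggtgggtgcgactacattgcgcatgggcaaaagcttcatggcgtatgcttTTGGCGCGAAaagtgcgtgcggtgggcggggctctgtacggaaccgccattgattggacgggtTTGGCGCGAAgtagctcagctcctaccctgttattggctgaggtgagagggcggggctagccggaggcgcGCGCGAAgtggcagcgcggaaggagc

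Pola1: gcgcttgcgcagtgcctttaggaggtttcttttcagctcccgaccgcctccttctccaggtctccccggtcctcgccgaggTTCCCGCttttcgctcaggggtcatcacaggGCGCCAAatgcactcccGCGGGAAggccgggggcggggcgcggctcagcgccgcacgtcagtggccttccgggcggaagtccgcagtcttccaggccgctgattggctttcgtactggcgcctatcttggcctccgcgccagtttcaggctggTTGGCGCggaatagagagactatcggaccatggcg

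Mcm3: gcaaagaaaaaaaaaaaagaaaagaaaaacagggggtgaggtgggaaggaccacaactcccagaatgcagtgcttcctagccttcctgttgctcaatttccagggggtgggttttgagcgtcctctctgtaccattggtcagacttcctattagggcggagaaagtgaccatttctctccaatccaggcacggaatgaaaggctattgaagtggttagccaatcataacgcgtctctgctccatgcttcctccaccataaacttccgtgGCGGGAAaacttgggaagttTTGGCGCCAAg

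Pold2: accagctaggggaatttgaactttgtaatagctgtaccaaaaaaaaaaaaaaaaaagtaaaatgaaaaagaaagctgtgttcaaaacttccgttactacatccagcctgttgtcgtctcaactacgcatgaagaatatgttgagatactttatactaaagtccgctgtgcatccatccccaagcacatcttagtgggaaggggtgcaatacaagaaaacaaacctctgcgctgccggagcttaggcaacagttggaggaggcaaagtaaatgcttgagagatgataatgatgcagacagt

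Mcm6 (chr1:128359656-128359955) held 5 matches, Pola1 (chrX:93632106-93632405) held 4, Mcm3 (chr1:20820263-20820562) held 3, and Pold2 (chr11:5877614-5877913) held 0 in this window, which is 1 of 2 listed for that gene. A run such as the one in capitals at the end of the Mcm3 window reads as E2F letters on both strands and was counted as 2 overlapping matches. Over all members, 36 genes had a window, and 24 of their 43 windows (55.8%) held an E2F match, against 9.57% of the 32851 windows of all genes. In the mitosis list, 3 of 23 windows (13%) held one. The CHR letters, TTTGAA and the variant TTCGAA, were in 14% of the members' windows, 73.9% of those of the mitosis list and 19.2% of all windows, and CCAAT was in 58.1%, 82.6% and 37.4%. Among the members tested, the 20 with an E2F match had a median log2 difference of 0.75 between array 8pm c and the other arrays of its time, and the 14 with a window but no match had 0.73. A match is a description of letters and not evidence of a site.

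**Figure D1:**
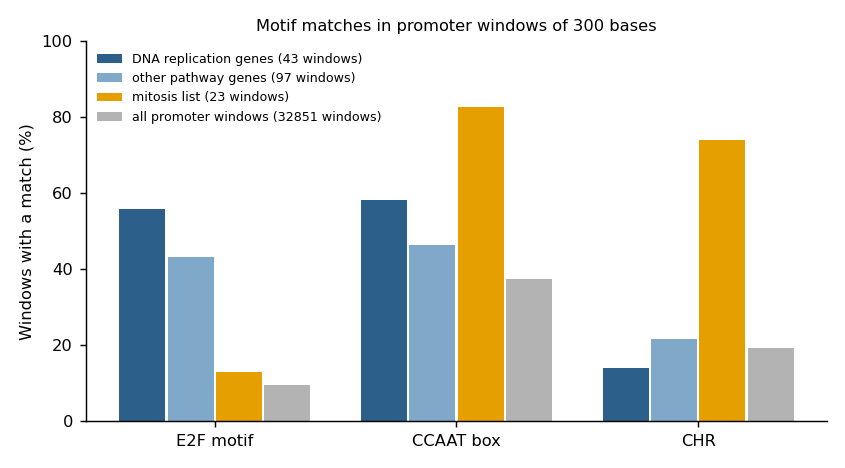
Share of promoter windows of 300 bases (y axis, percent) with at least 1 match to the E2F letters, to CCAAT or to the CHR letters, for the DNA replication genes, other genes of the pathway, the mitosis list and all windows. The replication genes reach 55.8% for E2F against 9.57% of all windows, and the mitosis list reaches 73.9% for the CHR.

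With all arrays, the mean over the replication genes moved between times by about as much as arrays of 1 time differed (within-time SD 0.235). That SD includes 1 array, 8pm c, which stood far above the rest. At the times other than 8pm the SD was 0.07 to 0.18. All levels below are log2(signal + 16). The mean over the 40 members was 9.32 ± 0.17 (SD, n = 3) at 8am, 9.17 ± 0.18 at 12pm, 9.10 ± 0.09 at 4pm, 9.33 ± 0.48 at 8pm, 9.31 ± 0.15 at 12am and 9.35 ± 0.07 at 4am. The wide spread at 8pm came from array c, at 9.88 against 9.10 and 9.004 in a and b, while the other 17 arrays lay between 9.004 and 9.52. A 24 h cosine curve fitted to this mean, as a description, had an amplitude of 0.114 ± 0.072 (SE) with its peak at 19.5 h after lights on. Without 8pm c the amplitude was 0.150 ± 0.043 and the peak fell at 21.8 h, near the end of the dark. The mitosis list of 25 genes had 0.422 ± 0.092 with a peak at 1.83 h, and 0.420 without 8pm c.

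**Figure D2:**
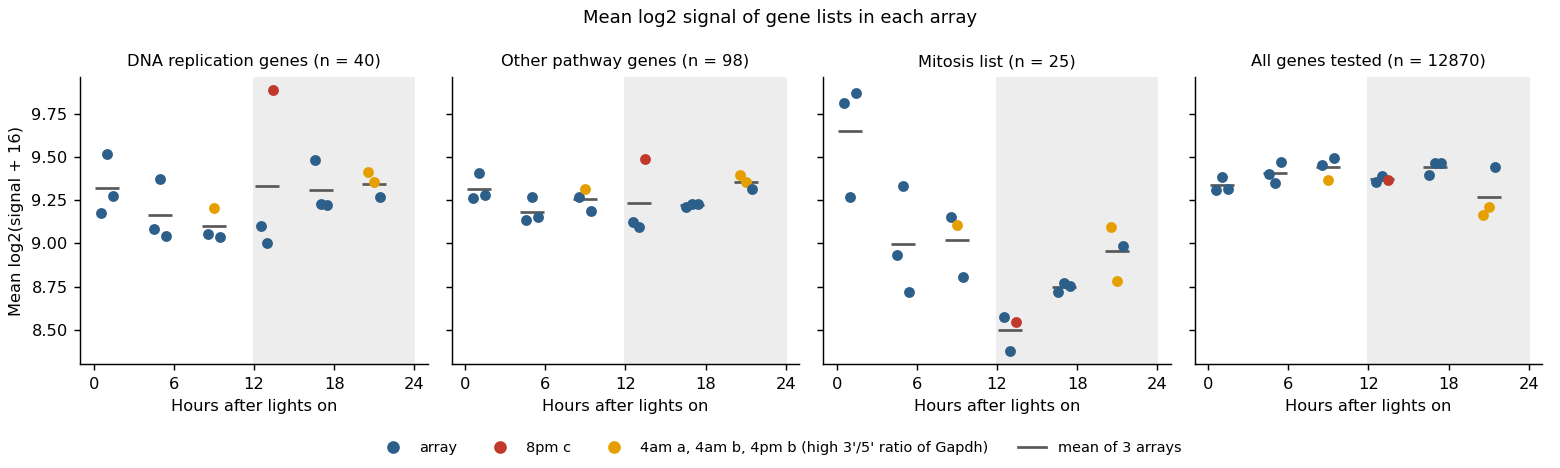
Mean log2(signal + 16) over the DNA replication genes, other genes of the pathway, the mitosis list and all genes tested (y axis) in each array against hours after lights on (x axis); points are arrays, bars are means of 3 arrays, and the shaded part is the dark. Array 8pm c is at 9.88 in the replication genes, the highest of all 18 arrays, and at 8.55 in the mitosis list, beside 8pm a and b.

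Some arrays differed in RNA quality or level, and this touches several results. Median signals ran from 126.7 to 251.3. The 3′ to 5′ signal ratio of the Gapdh control, which rises when RNA is broken, was between 0.746 and 1.12 in 14 arrays, 2.33 in 4pm c, and reached 18.2 in 4am b, 34.3 in 4pm b and 36.0 in 4am a. In 8pm c it was 0.793. Against the label of distal colon, 7 of 7 markers of the whole epithelium passed the filter, with summed signals of 64910 to 111000. Pancreas markers also passed, 5 of 5, with sums of 18200 to 115700 over the arrays.

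The test of a 24 h cosine curve called 0 of the 40 members at a limma adjusted p under 0.05, in a fit that called 5 genes in all (0.0389%). At an unadjusted p under 0.05 there were also 0 members, against 3.95% of all genes. Without 8pm c the adjusted count was again 0 (0.0622% of all genes), and 6 members had an unadjusted p under 0.05 (Mcm5, Gins2, Pola1, Pcna, Rrm2 and Ccne2, 15.0% against 4.61%). The fitted peaks of 18 of the 40 members (45%) fell between 18 and 24 h after lights on, against 21.7% of all genes. Without 8pm c this was 21 members (52.5%), against 2578 of all 12870 genes. Without the 3 arrays of high Gapdh ratio as well it was 28 (70.0%), against 2595 of all genes (20.2%). The only collection time in that window is 4am, at 21 h, and this last fit left 4am c alone there. Of the 98 other genes of the pathway, 38.8% peaked there with all arrays, 37.8% without 8pm c and 35.7% without all 4 arrays.

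The test for any difference among the 6 times called 2 members, Gins2 and Pold2, which is 5.0% of 40 against 17% of all genes. At an unadjusted p under 0.05 there were 8, adding Gmnn, Pola1, Pola2, Pcna, Rpa2 and Rpa3 (20% against 42.3%). Without 8pm c the test called 3, with Rpa2 added (7.5% against 7.71%). It called 2, Gins2 and Rpa2, without the 3 arrays of high Gapdh ratio (22.8% of all genes), and 3 with Uhrf1 added without all 4 arrays (18.2%). Leaving out single arrays moved the count from 0, without 4am b, to 19 without 4am c (47.5%), when 53.9% of all genes were called. With array quality weights it was 15 (37.5%), against 69.7% of all genes. Light minus dark called 0 members and 0.0% of all genes, and 3 had an unadjusted p under 0.05, against 6.21%, all lower in the light: Cdt1 at -0.43, Prim2 at -0.53 and Ccne2 at -0.47. The median over members was -0.15, with 30 of 40 lower, against 0.01 over all genes, with 6255 of 12870 lower. Without 8pm c it was -0.08, with 24 lower, against 6256 of all 12870 genes. Without 4am c, which leaves 4am a and b alone at that time, the contrast called 4 members (Cdt1, Mcm4, Prim2 and Pold2, 10%) against 7.42% of all genes. Of these, Pold2 was higher in the light with all arrays (0.42), and Cdt1, Mcm4 (-0.42) and Prim2 were lower. Array weights gave 6 (15.0%) against 15.1%.

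The 3 contrasts of times 12 h apart gave 0 members called each. For 8am minus 8pm the fit called 0.00777% of all genes and Gins2 was the 1 member with an unadjusted p under 0.05, against 2.88%. For 12pm minus 12am it called 0.0% of genes, and 0 members had an unadjusted p under 0.05 against 8.11%. The median over members there was -0.19 with 32 of 40 lower, against -0.03 over all genes with 6921 of 12870 lower. Centring each array on its median moved it to -0.03 with 21 lower. The median of all genes then went to 0.13, with 4570 lower. For 4pm minus 4am it called 0.0466%. At an unadjusted p under 0.05 there were 7 members (Pold2 higher at 4pm, and Cdt1, Mcm5, Pola1, Prim1, Pcna and Rfc4 lower) against 19.7%. Without the 3 arrays of high Gapdh ratio, which leaves 4am c alone at its time, these were 2 (Prim1 and Pcna, 5.0%) against 6.21% of all genes. The median over members was -0.27 and that of all genes 0.12; with centred arrays they were -0.48 and -0.09. Without 4am c, which leaves 4am a and b alone at that time, 15 members were called (37.5%) in a fit that called 31.8% of all genes, and array weights gave 8 (20%) against 25.4%. Arrays 4am a and b stood apart from 4am c in both directions: 7 members were above it by more than 1 (Cdt1, Mcm4, Pola1, Prim2, Rpa1, Fen1 and Rrm2, 17.5% against 8.11% of all genes) and 7 below it by more than 1 (Mcm3, Pola2, Pold1, Pold2, Rfc3, Rfc5 and Tk1, 17.5% against 20% of all genes). Probe sets of a single gene could go opposite ways there, as for Mcm7, with 0.66 for the chosen one and -3.08 for another. The part of RNA quality in these differences was not tested.

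Licensing genes load the helicase. The 8am arrays of Gmnn read 9.58, 9.81 and 9.64, those of 12pm 9.52, 9.74 and 9.45, those of 4pm 9.95, 10.30 and 9.96, those of 8pm 9.51, 9.49 and 9.98, those of 12am 9.29, 9.48 and 9.48 and those of 4am 10.93, 10.08 and 9.80. Gmnn encodes geminin, which blocks a second round of loading, and its highest array was 4am a. The test of any difference gave an adjusted p of 0.0879, and 4am c was within the range of the other times. Mcm3 had 9.39, 9.53 and 9.12 for 8am, 9.93, 9.92 and 9.50 for 12pm, 9.38, 9.58 and 9.27 for 4pm, 9.42, 9.28 and 10.28 for 8pm, 10.27, 9.44 and 9.69 for 12am and 8.34, 8.53 and 9.67 for 4am. Mcm3 is a subunit of the helicase ring; it was lowest in 4am a and b and highest in 8pm c and 12am a, and its adjusted p was 0.16. Its 4 kept probe sets did not move together in 2 of the arrays with a high Gapdh ratio: 4am a and b minus 4am c was -1.23 for the chosen one and -2.11, -0.93 and 0.58 for the others.

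The other licensing members gave no adjusted p under 0.05. Mcm5, another ring subunit, ran from 9.46 in 8pm b to 10.98 in 8pm c, and its 8am arrays were all above 8pm a and b. In arrays a to c, Mcm5 read 9.85, 10.13 and 10.01 (8am), 9.86, 10.28 and 9.68 (12pm), 9.58, 9.995 and 9.59 (4pm), 9.79, 9.46 and 10.98 (8pm), 10.76, 10.09 and 9.67 (12am) and 10.71, 10.80 and 9.98 (4am). Its 8am minus 8pm difference was -0.08 ± 0.35 (SE) with 8pm c and 0.37 ± 0.32 without it. Mcm2 ran from 10.21 in 4pm b to 11.61 in 8pm c, Mcm4 from 9.40 in 4am c to 11.47 in 4am b, Mcm6 from 9.74 in 8pm b to 11.01 in 12am a and Mcm7 from 10.80 in 8pm b to 12.15 in 4am b. Orc1, Orc2 and Orc6, parts of the origin recognition complex, ran from 8.46 in 8am c to 9.40 in 12am b, from 7.78 in 4am b to 8.96 in 8pm c and from 5.71 in 4pm c to 8.77 in 4am a. Orc1 was 8.95, 8.77 and 8.46 in the arrays of 8am, 8.81, 9.08 and 8.87 in those of 12pm, 8.80, 8.82 and 9.04 in those of 4pm, 8.84, 9.02 and 8.50 in those of 8pm, 8.97, 9.40 and 9.03 in those of 12am and 8.55, 8.98 and 8.88 in those of 4am. Its arrays at 12am had the highest mean, and 8pm c was below both other arrays of 8pm. The loaders Cdc6 and Cdt1 ran from 5.86 in 12pm c to 8.22 in 4pm b and from 9.61 in 8am c to 11.43 in 4am a. Cdt1 was above the rest in 4am a and b, at 11.43 and 11.21, with 4am c at 10.05, and its second probe set went the other way there (-0.94 against 1.27).

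Of the origin-firing genes, Gins2 passed the test of any difference among the times. It encodes a subunit of the GINS complex, which completes the active helicase. Log2 signals of Gins2 were 9.003, 9.03 and 8.28 (8am), 6.72, 7.02 and 6.55 (12pm), 6.56, 7.05 and 6.24 (4pm), 6.60, 6.68 and 9.28 (8pm), 6.82, 6.82 and 6.14 (12am) and 6.98, 6.97 and 6.91 (4am). The 3 arrays of 8am and array 8pm c were high, and no other array reached 7.1. Its mean of 7.20 was just above the filter cut of 7.10, so Gins2 entered the tests through these arrays. The filter was set on all 18 arrays and kept in the fits that left arrays out. The test of any difference gave a limma adjusted p of 0.0367, and 0.00536 without 8pm c. The 8am minus 8pm difference was 1.25 ± 0.52 (SE; adjusted p = 0.9999) and 2.13 ± 0.35 without 8pm c (adjusted p = 0.0865, with 0 members called and 0.00777% of all genes; at an unadjusted p under 0.05 there were Gins2 and Rrm1, 5.0% against 3.28%). It was the 1 member called in that contrast when 4am a, 4am b and 4pm b were left out too (adjusted p = 0.035, in a fit that called 0.14% of all genes). Its call in the test of any difference was lost without any 1 of 8am a, b or c, 12pm a, b or c, 4pm a, 12am a, b or c or 4am b, with adjusted p from 0.05 to 0.106. A second probe set of Gins2 was at 8.24, 8.25 and 8.46 at 8am, but at 7.86 in 8pm c beside 7.39 and 7.71 in a and b, so a difference above 1 in 8pm c was seen in 1 of the 2. For that probe set 4am a and b minus 4am c was -2.30. The 8am arrays of Mcm10 read 8.68, 9.10 and 8.72, those of 12pm 9.09, 9.02 and 9.26, those of 4pm 8.74, 8.92 and 9.23, those of 8pm 8.99, 8.76 and 9.62, those of 12am 9.06, 9.40 and 9.25 and those of 4am 8.82, 8.93 and 9.24. Mcm10, a helicase cofactor, had overlapping times (adjusted p = 0.656). Cdc45 ran from 7.32 in 12am c to 8.93 in 8pm c, and Gins1, below the filter, from 5.67 in 8am a to 7.60 in 12pm a.

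**Figure D3:**
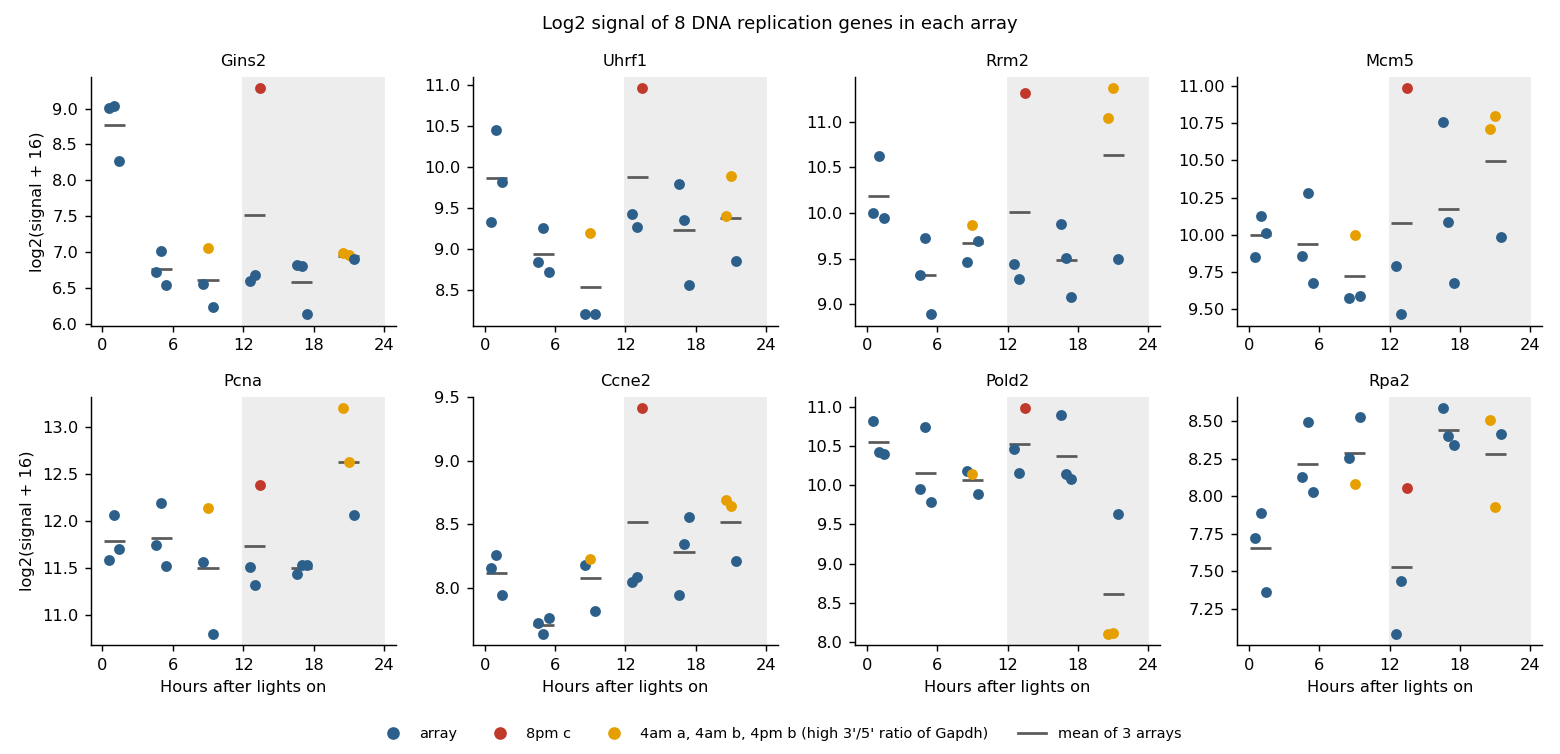
Log2(signal + 16) of 8 DNA replication genes in each array (y axis) against hours after lights on (x axis), with arrays as points, means of 3 arrays as bars and the dark shaded. Gins2 is above 8 in the 8am arrays and in 8pm c only, and Pold2 is near 8.1 in 4am a and 4am b, which are marked as arrays with a high Gapdh ratio.

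Among the polymerase genes Pold2, an accessory subunit of polymerase delta, was called for any difference (adjusted p = 0.0178). Pold2 had 10.82, 10.42 and 10.40 for 8am, 9.96, 10.74 and 9.78 for 12pm, 10.18, 10.14 and 9.89 for 4pm, 10.46, 10.15 and 10.99 for 8pm, 10.90, 10.14 and 10.08 for 12am and 8.10, 8.12 and 9.63 for 4am. Arrays 4am a and b were far below all others, and 4am c lay below the other times by less. These are 2 of the arrays with a high Gapdh ratio, and the gene did not pass once 4am a (adjusted p = 0.0569) or 4am b (0.0636) was left out, or both with 4pm b (0.27), and also not without these 3 and 8pm c (0.318). Beyond these fits, the part of RNA quality in this result was not tested. In arrays a to c, Pola1 read 8.77, 9.33 and 9.14 (8am), 8.35, 8.84 and 7.85 (12pm), 8.51, 8.94 and 8.10 (4pm), 8.76, 8.51 and 9.17 (8pm), 8.51, 8.06 and 8.43 (12am) and 10.12, 9.74 and 8.79 (4am). Pola1 is the catalytic subunit of polymerase alpha, which starts each strand; its highest arrays were 4am a and b, and its adjusted p was 0.0608. Pola2, its partner, went the other way in the same arrays, running from 5.89 in 4am a to 8.93 in 12am c. The primase subunits Prim1 and Prim2 ran from 8.72 in 4pm c to 11.04 in 4am a and from 8.24 in 8am a to 10.15 in 4am a, Pold1 from 7.73 in 4am a to 9.67 in 12am a, and Pole, below the filter, from 4.88 in 8pm b to 6.40 in 4am a.

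The clamp, clamp loader and single-strand binding genes gave no call with all arrays. Rpa2 was 7.72, 7.89 and 7.36 in the arrays of 8am, 8.13, 8.50 and 8.03 in those of 12pm, 8.26, 8.08 and 8.52 in those of 4pm, 7.08, 7.44 and 8.06 in those of 8pm, 8.59, 8.40 and 8.34 in those of 12am and 8.51, 7.93 and 8.41 in those of 4am. Rpa2 is a subunit of RPA, which coats single strands, and its lowest arrays were 8pm a, 8am c and 8pm b. It was called without 8pm c (adjusted p = 0.0436 against 0.0605 with it), and the arrays at 12am were all above those at 8am. Its second probe set did not follow it (r = -0.13 over the 18 arrays, which share all scaling). Log2 signals of Rpa3 were 10.17, 9.87 and 9.80 (8am), 9.75, 9.92 and 9.85 (12pm), 9.89, 10.32 and 9.34 (4pm), 9.995, 9.97 and 10.07 (8pm), 8.89, 9.41 and 9.55 (12am) and 11.16, 10.20 and 9.89 (4am). Rpa3, the smallest RPA subunit, was highest in 4am a and lowest in 12am a (adjusted p = 0.104). The 8am arrays of Pcna read 11.58, 12.07 and 11.70, those of 12pm 11.74, 12.19 and 11.52, those of 4pm 11.56, 12.14 and 10.80, those of 8pm 11.51, 11.32 and 12.38, those of 12am 11.43, 11.54 and 11.53 and those of 4am 13.20, 12.62 and 12.06. Pcna, the sliding clamp, was highest in 4am a and b and next in 8pm c, and its adjusted p was 0.109. Rpa1 ran from 10.69 in 12am b to 12.45 in 4am b, and the loader genes Rfc2, Rfc3, Rfc4 and Rfc5 ran from 9.57 in 12pm a to 10.56 in 8pm c, from 6.76 in 4am a to 8.99 in 12am c, from 8.12 in 12am a to 10.17 in 4am a and from 7.82 in 4am a to 9.73 in 12am a.

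Lagging strand joining rests on Fen1, the flap nuclease, and Lig1, the ligase. Fen1 had 11.14, 11.85 and 12.76 for 8am, 10.31, 10.54 and 12.29 for 12pm, 10.88, 10.37 and 11.67 for 4pm, 11.22, 11.19 and 11.44 for 8pm, 12.68, 12.36 and 11.29 for 12am and 11.42, 12.30 and 10.59 for 4am. Fen1 ran from 10.31 to 12.29 within 12pm alone, its chosen probe set is of a class that can bind several transcripts, and the other probe set did not follow it (r = 0.158). In arrays a to c, Lig1 read 9.34, 9.54 and 9.52 (8am), 9.60, 9.89 and 9.55 (12pm), 9.66, 9.55 and 9.87 (4pm), 9.004, 9.43 and 9.85 (8pm), 10.32, 9.83 and 9.64 (12am) and 9.60, 8.97 and 9.96 (4am). Lig1 was highest in 12am a and lowest in 4am b and 8pm a. The adjusted p was 0.341 for Fen1 and 0.522 for Lig1.

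In nucleotide supply, the ribonucleotide reductase subunits Rrm1 and Rrm2 were above 8pm a and b in 8pm c. Rrm2 was 10.002, 10.62 and 9.95 in the arrays of 8am, 9.33, 9.73 and 8.89 in those of 12pm, 9.47, 9.87 and 9.69 in those of 4pm, 9.44, 9.27 and 11.31 in those of 8pm, 9.88, 9.51 and 9.08 in those of 12am and 11.04, 11.36 and 9.50 in those of 4am. Rrm2, the regulated subunit, was highest in 4am b (11.36), 8pm c (11.31) and 4am a (11.04), and the 8am arrays were all above 8pm a and b. Its 3 kept probe sets all had 8pm c above a and b, by 1.95, 1.53 and 1.65, but 4am a and b minus c was 1.70, -1.72 and 0.82. Log2 signals of Tk1 were 8.70, 9.08 and 9.27 (8am), 8.69, 9.07 and 7.82 (12pm), 8.62, 7.99 and 8.17 (4pm), 8.77, 8.17 and 8.41 (8pm), 7.998, 8.38 and 8.62 (12am) and 7.34, 7.30 and 8.78 (4am). Tk1, the thymidine kinase of dividing cells, was lowest in 4am a and b and was not raised in 8pm c (8.41 beside 8.77 and 8.17). Rrm1 ran from 8.76 in 8pm b to 10.10 in 12pm b with 0.77 ± 0.30 (SE) for 8am minus 8pm without 8pm c (limma unadjusted p = 0.0186), Dut from 9.03 in 4pm c to 10.84 in 4am a, and Tyms, below the filter, from 4.99 in 8pm c to 8.18 in 12am c.

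Read from the chosen probe sets, the G1/S regulators and the chromatin genes gave no call with all arrays either. The 8am arrays of Ccne2 read 8.15, 8.26 and 7.94, those of 12pm 7.73, 7.64 and 7.77, those of 4pm 8.18, 8.23 and 7.82, those of 8pm 8.05, 8.08 and 9.42, those of 12am 7.94, 8.34 and 8.56 and those of 4am 8.70, 8.64 and 8.21. Ccne2, cyclin E2, drives entry into S phase; 8pm c was its highest array by a wide margin and the 12pm arrays its lowest. E2f1 had 6.66, 7.86 and 7.90 for 8am, 7.87, 7.69 and 8.22 for 12pm, 7.27, 6.59 and 8.03 for 4pm, 7.66, 7.73 and 8.46 for 8pm, 8.13, 8.11 and 8.39 for 12am and 6.49, 7.52 and 7.997 for 4am. E2f1, the E2F activator itself, was low in 8am a, 4pm b and 4am a. Ccne1 ran from 7.06 in 8pm a to 9.06 in 4pm c. In arrays a to c, Uhrf1 read 9.34, 10.45 and 9.82 (8am), 8.85, 9.26 and 8.72 (12pm), 8.21, 9.20 and 8.21 (4pm), 9.42, 9.27 and 10.96 (8pm), 9.80, 9.36 and 8.56 (12am) and 9.41, 9.88 and 8.85 (4am). Uhrf1, which brings the maintenance methyltransferase to the fork, was highest in 8pm c and 8am b, and all 3 arrays of 8am were above those of 4pm. Chaf1b was 7.56, 8.36 and 8.22 in the arrays of 8am, 7.70, 7.65 and 8.02 in those of 12pm, 7.98, 7.88 and 8.56 in those of 4pm, 7.72, 7.40 and 9.14 in those of 8pm, 8.98, 8.09 and 8.18 in those of 12am and 8.22, 7.86 and 8.74 in those of 4am. Chaf1b, a subunit of the chromatin assembly factor, was highest in 8pm c and 12am a. Adjusted p of any difference was 0.214 for Ccne2, 0.299 for E2f1, 0.119 for Uhrf1 and 0.753 for Chaf1b. In the same limma test on every kept probe set, the other probe set of Chaf1b had an adjusted p of 0.0055 (r = 0.23 with the chosen one). The other one of Uhrf1 had 0.0351 (r = 0.568). That fit called 3492 of all 27022 probe sets.

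Array 8pm c had higher signals of 38 of the 40 replication transcripts than the other arrays of its time. That share stands against 50% of all genes above the mean of 8pm a and b, and the median difference was 0.73 on the log2 scale. Of these, 11 were above by more than 1 (27.5%), against 0.87% of all genes. It was the highest of all 18 arrays for 13 members (32.5%), against 4.02% of all genes. In the other 17 arrays, compared in the same way with the other arrays of their times, 0 to 7 members were above by more than 1, and the medians were -0.49 to 0.35. This describes 1 array against 2 and has no test. The members, and the comparison with and without 8pm c, were set with earlier results of these data known. The shares beside all genes are therefore not independent evidence.

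The 6 largest differences in 8pm c were Gins2 at 2.64 (6.24-fold), Rrm2 at 1.95 (3.87-fold), Uhrf1 at 1.61 (3.05-fold), Chaf1b at 1.58 (2.99-fold), Mcm5 at 1.36 (2.56-fold) and Ccne2 at 1.35 (2.55-fold). Cdc45, Mcm4, Cdc6, Ccne1 and Rrm1 followed between 1.07 and 1.27. The smallest were Orc1 at -0.43, Tk1 at -0.06 and Rpa3 at 0.09. By role, the medians were 0.91 for 12 licensing genes, 0.58 for 6 primase and polymerase genes and 0.62 for 8 clamp, loader and RPA genes, and each of the 6 polymerase genes was higher. Of 35 further probe sets of the members that passed the filter, 30 were higher in 8pm c and 9 by more than 1, with a median of 0.75. For Orc1 and Fen1 the other probe set was higher there by 0.75 and 1.504, and for Chaf1b and Cdc45 the difference was -0.18 and -0.48. Of the 11 members above 1, Mcm4, Mcm5, Rrm2 and Ccne1 were read, like Fen1, from a probe set named _x_at. That class can bind several transcripts. Only this class was looked at, and Gins2 was read from a probe set named _s_at, which was not assessed for this. The other probe set was higher in 8pm c by 0.84 for Mcm4 (r = 0.877 with the chosen one over the 18 arrays) and by 1.08 for Ccne1 (r = 0.108). For Mcm5 the others were higher by 1.52 and 0.39, and over the 18 arrays they did not follow the chosen one (r = 0.075 and 0.097).

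**Figure D4:**
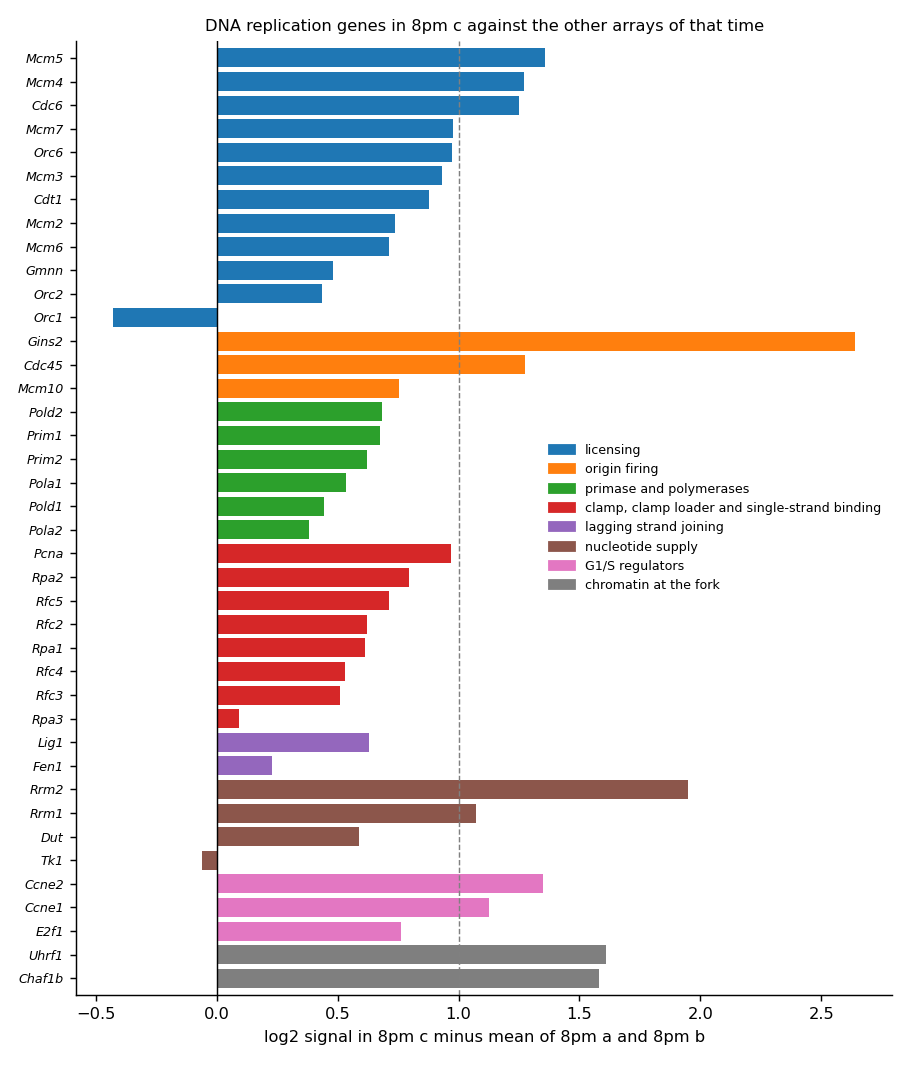
Log2 signal in array 8pm c minus the mean of 8pm a and b (x axis) for each of the 40 DNA replication genes (y axis), coloured by role; the dashed line marks 1. Bars of 38 genes lie above 0 and those of 11 genes pass 1, with Gins2 at 2.64 the longest.

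Of 25 mitosis genes, 17 (68.0%) were higher in 8pm c than the mean of a and b, with a median difference of 0.215 and 0 above by more than 1. Their mean in 8pm c was 8.55, 0.07 above that of a and b, and the mean over 98 other genes of the replication pathway was 0.38 above. All genes together were 0.01 below. Of the marker lists of other cell types, B cell markers summed to a signal of 1401 in 8pm c, 3123 in a and 2551 in b, with 0 of 7 higher, and the other 15 arrays ran from 841.6 to 4466. Smooth muscle summed to 46300, 60750 and 57520, with 0 of 7 higher, and macrophages to 7407, 10010 and 9420, with 0 of 6 higher. Adipose markers summed to 1198, 2226 and 2796, with 0 of 4 higher and 2 lower by more than 1, and surface colonocytes to 83250, 100900 and 93580, with 0 of 7 higher. Plasma cell markers summed to 19450, 15560 and 15550, with 3 of 6 higher and 1 by more than 1. Pancreas markers summed to 22570, 31740 and 27760, with 3 of 5 higher and 1 by more than 1. Markers of the crypt base summed to 3662, 3254 and 4040, with 5 of 8 higher. Those of the whole epithelium summed to 95310, 104100 and 92770, with 2 of 7 higher and 1 by more than 1. Germinal centre B cell markers were at 1344, 1270 and 1276, with 3 of 6 higher. Also higher in 8pm c were 5 of 6 enteroendocrine, 3 of 6 T cell, 2 of 7 goblet cell, 3 of 6 endothelial and 4 of 7 anal squamous markers. Their part in the result was not tested.

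The comparison of 8am with 8pm, 12 h apart, turned on that array. With all arrays, 17 of 40 members (42.5%) were higher at 8am and the median difference was -0.04 (all genes -0.03 and 44.4% higher). Without 8pm c, 31 of 40 were higher and the median was 0.18 (all genes -0.03 and 44.8% higher). All 3 arrays of 8am were above 8pm a and b for 12 members (30.0% against 12.5% of all genes): Cdc6, Gmnn, Mcm5, Gins2, Pola1, Pcna, Rfc2, Rfc5, Rrm1, Rrm2, Dut and Ccne1. Above all 3 arrays of 8pm they were for 0 members (5.63% of all genes). In the mitosis list, whose level in 8pm c lay beside a and b, the 8am arrays were above all those of 8pm for 21 of 25 genes either way, and all 25 had a higher mean at 8am with a median of 1.27.

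**Figure D5:**
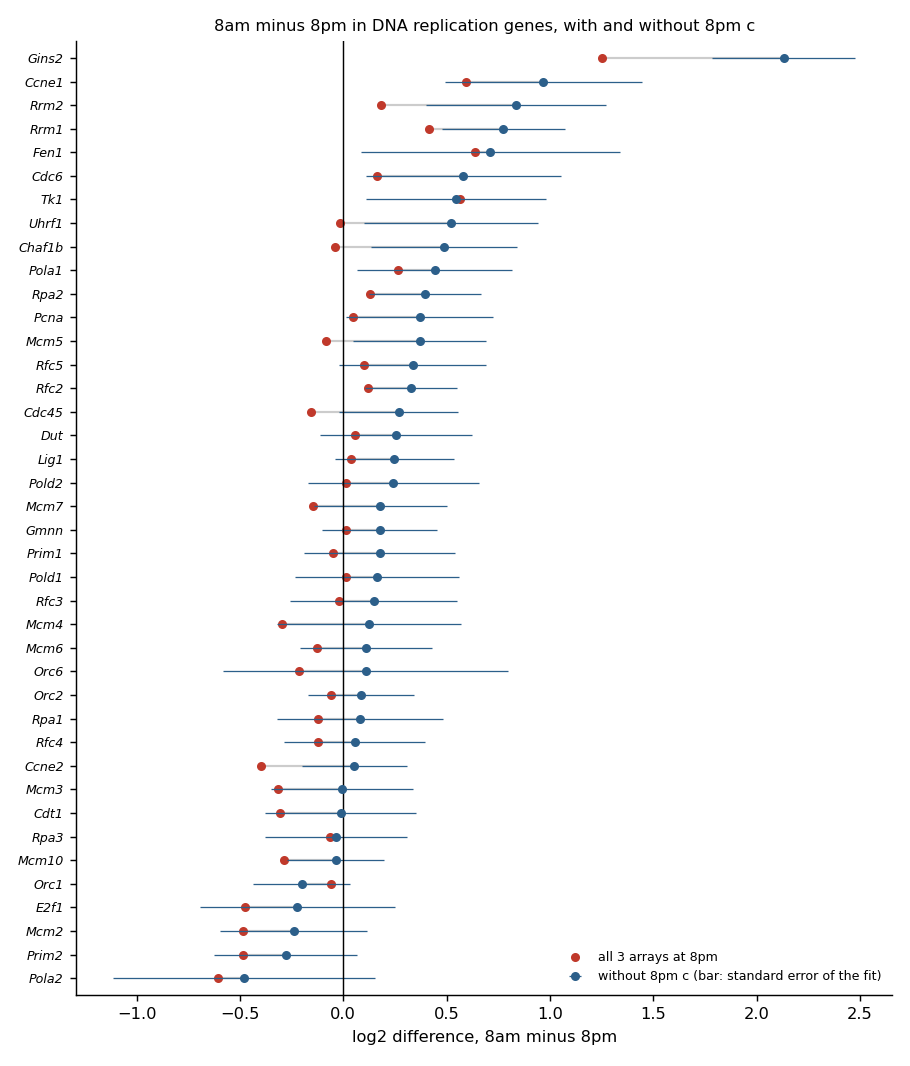
Log2 difference of 8am minus 8pm (x axis) for each of the 40 DNA replication genes (y axis), with all 3 arrays of 8pm in red and without 8pm c in blue; blue bars are the standard error of the limma fit. Without 8pm c 31 genes are above 0 (77.5%, against 44.8% of all genes), and with it 17 (42.5%, against 44.4%).

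The members followed each other to differing degrees. The mean of their 780 pairwise correlations over the 18 arrays was 0.163, with 511 above 0, against 0.015 over all genes and 0.365 in the mitosis list, and it was 0.090 without 8pm c. Once the 3 arrays of high Gapdh ratio were left out it was 0.292, with 644 pairs above 0, against 0.012 over all genes, and 0.168 without these and 8pm c. Points share arrays, scaling and RNA quality, so these are descriptions. Mcm5 (r = 0.848), Uhrf1 (0.796), Mcm7 (0.778) and Rrm2 (0.718) followed the mean of the other members most closely, and Orc1 (-0.413), Pola2 (-0.147) and Tk1 (-0.071) least. Without the 3 arrays of high ratio Pola2 had 0.188 and Tk1 0.145, and Orc1 stayed below 0 (-0.401). Pold1 went from 0.148 to 0.760 there and Mcm3 from 0.221 to 0.662. Without 8pm c alone Orc1 had -0.184, Pola2 -0.391 and Tk1 -0.105. Without all 4 arrays these were -0.08, -0.018 and 0.342. All these values are for the chosen probe sets, which other kept ones of a gene did not always follow over the 18 arrays. With the chosen one, those of Mcm5 had r = 0.075 and 0.097 and those of Mcm7 -0.117, 0.51 and 0.872. Those of Rrm2 had 0.145 and 0.754, and that of Uhrf1 had 0.568. The mean over members and that over the mitosis list had r = 0.013 over 18 arrays and 0.296 over the 17 without 8pm c. Outside the lists, the genes most like the mean over members were Emc1 (r = 0.717), Cenpo (0.697), Dnajc9 (0.689), Tcf19 (0.669), Rab5if, Hpf1, Cyb5r1, Tbc1d10b, Nxt1 and Utp4 (0.615). Without 8pm c they were 2210407C18Rik (0.750), Litaf (0.737), Sgo1 (0.674), Dnajc9 (0.668), Cenpo (0.666), Stil, Emc1, Fam122a, Mmachc and Prr13 (0.643).

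Of 98 other genes of the pathway, 17 were called for any difference (17.3% against 17% of all genes): Orc5, Dbf4, Donson, Dscc1, Ssbp1, Dck, Dguok, Shmt1, Ccna2, Rb1, Rbl1, Cdkn1b, Wee1, Asf1a, Hells, Ezh2 and Esco2, and 0 in each of the other 5 tests. Log2 signals of Dscc1 were 6.32, 6.61 and 6.38 (8am), 7.61, 7.40 and 8.06 (12pm), 7.69, 7.72 and 8.08 (4pm), 6.92, 6.09 and 6.90 (8pm), 7.69, 8.04 and 8.47 (12am) and 7.12, 6.68 and 7.47 (4am). Dscc1, a subunit of an alternative clamp loader, was low at 8am and 8pm (adjusted p = 0.0101). The 8am arrays of Dguok read 9.84, 9.69 and 9.46, those of 12pm 8.74, 9.54 and 8.14, those of 4pm 8.84, 8.48 and 8.83, those of 8pm 9.82, 9.52 and 9.74, those of 12am 8.92, 9.08 and 8.86 and those of 4am 7.29, 8.49 and 8.04. Dguok, a kinase of mitochondrial nucleotide salvage, was high at 8am and 8pm and lowest at 4am (adjusted p = 0.0128). Cdkn1b had 10.20, 10.57 and 11.19 for 8am, 10.11, 9.55 and 9.80 for 12pm, 9.82, 10.06 and 9.94 for 4pm, 10.68, 10.82 and 10.86 for 8pm, 9.84, 10.07 and 9.82 for 12am and 10.82, 10.83 and 10.30 for 4am. Cdkn1b, the inhibitor p27 of cyclin E kinase, was high at 8am, 8pm and 4am (adjusted p = 0.0224). In arrays a to c, Ssbp1 read 11.68, 11.67 and 11.90 (8am), 10.91, 10.96 and 10.96 (12pm), 11.40, 11.76 and 11.66 (4pm), 11.39, 11.38 and 11.33 (8pm), 11.02, 10.47 and 10.38 (12am) and 12.50, 12.19 and 11.30 (4am). Ssbp1, the single-strand binding protein of mitochondria, was lowest at 12am (adjusted p = 0.0151). In the mitosis list, 11 of 25 were called for any difference, with the lowest adjusted p in Plk1 (0.0059), Mki67 (0.0103), Bub1 (0.0132) and Bub1b (0.0235).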

How the data were processed

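Each of 6 collection times had 3 Affymetrix arrays of total RNA from the distal colon, 18 in all. The deposited table holds a linear signal intensity per probe set, made by the authors with GCOS, per the submitters' processing notes (version not given in the sources used here). The trimmed mean, leaving out 2% at each end, was 500 as an average over the arrays. No detection calls or counts were used. Of 45101 probe sets, 64 were controls and 34945 carried 1 gene symbol in the platform annotation. Values were taken as log2(signal + 16), kept when the mean log2 reached the 40th percentile (7.10), and the highest-mean probe set stood for each gene (12870 genes). The deposited scaling was kept, since array medians deviated by at most 0.497, under a limit of 0.5. A 24 h cosine and 6 time means were fitted to all genes with limma 3.58.1 in R 4.3.3 (empirical Bayes with trend, 15 and 12 residual degrees of freedom). The cosine test and the test of any difference are F tests, and the contrasts are two-sided t tests. Adjusted p is Benjamini-Hochberg over all genes with a threshold of 0.05. The fits were tested on simulated data. Precision is limited by 3 arrays per time. Letters a to c were not used to pair arrays across times. The members and gene lists were chosen with earlier results of these data known. Given in every array are members called with all arrays in any of the 6 tests, the 2 with the lowest unadjusted p for any difference in each role group, and the 6 largest and 3 smallest differences in 8pm c.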

Additional observations from a re-analysis of the deposited data

How the results depend on the processing

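The cosine test called 0 members under all 31 alternatives and 12pm minus 12am 0 under all 30. The test of any difference called 2 members in the main setting, 1 (Pold2) with a replicate block and 15 with array quality weights. With every kept probe set on its own it called 4 members (Chaf1b, Gins2, Pold2 and Uhrf1). There, 4 of the members' 75 kept probe sets were called, against 3492 of all 27022. Leaving out 1 array gave 0 (without 4am b) to 19 (without 4am c). Light minus dark called 6 with array weights and 0 to 4 when 1 array was left out (4 without 4am c). For 8am minus 8pm there was 1 (Gins2) without 8pm c, 4am a, 4am b and 4pm b together. For 4pm minus 4am there were 8 with array weights and 0 to 15 when 1 array was left out (15 without 4am c). The counts of all genes moved too: without 4am c, 53.9% of all genes were called for any difference, 7.42% for light minus dark and 31.8% for 4pm minus 4am, and with weights 69.7%, 15.1% and 25.4%, and the cause was not tested. The amplitude of the mean over members ran from 0.07 to 0.167 over 27 alternatives, and with arrays centred on the median it was 0.244 without 8pm c and 0.209 without that array and the 3 of high Gapdh ratio. The median over members for 8am minus 8pm ran from -0.18 to 0.18. Over deviations from time means, arrays of the same replicate letter had a mean correlation of -0.0124 (-0.49 to 0.295 over 45 pairs). Arrays of different letters had 0.00608. No pairing by letter was seen on average, but a mean cannot exclude it between some times. The block fit is therefore an alternative only. The other probe sets per gene, quantile and median scaling, the constant added and the filter changed no other count of called members by more than 1.5 times. One probe set per gene without those named _x_at, which may bind several transcripts, was an alternative added after seeing the data. It called 2 members for any difference and 0 in each other test. With 3 arrays per time and no detection calls, small differences cannot be resolved.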
